A study of Homo sapiens with 8 samples.

Results

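The long noncoding RNA genes MALAT1, NEAT1, KCNQ1OT1, GAS5, SNHG1 and SNHG5 were followed through 4 treatments of a leukaemia cell line. They are 6 of the 25168 genes in the deposited count table and were taken by their symbols. The set was chosen by its MALAT1 level, the highest of any gene in the combination, so MALAT1 in every comparison that involves the combination is a description with no test. All 6 passed the filter on low counts, which left 12843 genes for testing.

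RNA was sequenced from KG1a cells, a CD34-positive acute myeloid leukaemia line with immature features, 48 h after treatment. The groups were TAK-981 (5 µM) together with venetoclax (1 µM), TAK-981 alone (5 µM), venetoclax alone (1 µM) and the DMSO vehicle, with 2 libraries each. TAK-981 blocks SUMO-activating enzyme, the first step in attaching the modifier SUMO to nuclear and other proteins, and venetoclax inhibits the survival protein BCL2. All groups are 1 cell line. Whether replicate libraries were grown separately is not stated, so each p-value reflects library-to-library spread that may be technical only. In bulk RNA, fewer cells of a type and less RNA per cell cannot be told apart. Library totals ran between 13204588 and 26304900 counts. The median absolute difference between the 2 libraries of a group, over 9858 well-measured genes, was 0.26 on the log2 scale for venetoclax and 0.09 to 0.10 for the other groups, so the venetoclax pair stood apart from the rest in its spread. The markers CD34, PTPRC (CD45) and SPN (CD43) of this line were read in all libraries, with CD34 between 953 and 1520 CPM (counts scaled to a common library total). Some markers moved with treatment, in both directions: PTPRC fell in the combination against vehicle (log2 fold change -0.89, adjusted p = 0.00303 in the edgeR test described with MALAT1), and the myeloid antigen CD33 rose there (2.02, adjusted p = 0.00377) and with TAK-981 (2.22, adjusted p = 0.00463). SPN rose in the combination (0.41, adjusted p = 0.0224) and with TAK-981 (0.47, adjusted p = 0.0255), both against vehicle. CD34 rose with venetoclax against vehicle (0.49, adjusted p = 0.0323). FGFR1OP2, another listed marker of the line, fell in the combination against vehicle (-0.51, adjusted p = 0.0181). CD33 was low, at 33 and 26 counts in the combination, 39 and 41 with TAK-981, 5 and 8 with venetoclax and 10 and 9 with vehicle, and MPO, the myeloperoxidase of granulocytes, had 3 and 3 counts in the combination, 11 and 12 with TAK-981, and 0 in the venetoclax and vehicle libraries. The part of these shifts in the results was not tested. HBB of red cells and EPCAM of epithelium had 0 counts in all 8 libraries, which allows up to 3 counts in each, and KRT8 and COL1A1 had at most 2 and 4.

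Long noncoding RNAs act as transcripts and not as templates for protein. MALAT1 gathers in nuclear speckles, which hold splicing factors. NEAT1 is the RNA on which paraspeckles are built, nuclear bodies of RNA-binding proteins. KCNQ1OT1 is transcribed antisense within KCNQ1 from the paternal chromosome and silences the imprinted genes around it. GAS5, SNHG1 and SNHG5 are small nucleolar RNA (snoRNA) host genes: the snoRNAs that guide modification of ribosomal RNA are cut from their introns, and the spliced exons that remain are exported and then degraded by nonsense-mediated decay as ribosomes move along them.

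MALAT1 lies at chr11:65497762-65506469 on the plus strand of hg38, 52.2 kb beyond the end of NEAT1 (chr11:65422798-65445540, plus strand). The 3′ end of mature MALAT1 and of the long form of NEAT1 is not a poly(A) tail: RNase P cuts the transcript in front of a tRNA-like fold, and 2 U-rich motifs clasp an A-rich tract into a triple helix. These stretches are printed because the table holds reads of RNAs that end in different ways, and the values of MALAT1 are set beside such RNAs in what follows. They are from GENCODE release 29 transcripts on GRCh38, read 5′ to 3′ with T for U. Capitals mark, in order, the first U-rich motif, the second U-rich motif and the A-rich tract.
MALAT1 (bases 8260 to 8415 of the transcript, chr11:65506021-65506176, plus strand): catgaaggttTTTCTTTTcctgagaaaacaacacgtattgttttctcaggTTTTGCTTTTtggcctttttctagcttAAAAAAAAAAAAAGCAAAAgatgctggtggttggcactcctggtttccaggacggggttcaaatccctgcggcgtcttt
NEAT1 (bases 22646 to 22743 of the transcript, chr11:65445443-65445540, plus strand): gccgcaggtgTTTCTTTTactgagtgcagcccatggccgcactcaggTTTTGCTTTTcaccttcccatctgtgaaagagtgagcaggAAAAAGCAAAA

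The motifs searched were TTTCTTTT, TTTTGCTTTT and AAAAAGCAAAA, on the transcript strand only, in the last 500 bases of the longest transcript of 11990 long noncoding RNA genes. They were found in 6.19%, 0.392% and 0.133% of these windows. All 3 in this order were found in 2 windows, those of MALAT1 and NEAT1. The letters searched are those printed above for these 2 genes, so their match was given in advance. Motifs with other letters were not sought. In MALAT1, 13 A bases precede the GCAAAA, and the tRNA-like part follows in small letters. In NEAT1, 5 A bases precede the GCAAAA, with which the annotated transcript ends. The longer form of NEAT1 ends there, whereas the shorter form has a poly(A) tail, and the table has a single value for both.

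MALAT1 was highest in the combination. It had 11464 and 13524 CPM with TAK-981 + venetoclax, 6152 and 3496 CPM with TAK-981, 5356 and 3755 CPM with venetoclax, and 3281 and 3074 CPM with vehicle, on totals scaled by the trimmed mean of M values (TMM). Both combination libraries were above all the others, the TAK-981 and venetoclax libraries overlapped, and the vehicle libraries were the lowest. The means were 12494 ± 1456 CPM in the combination, 4824 ± 1878 with TAK-981, 4556 ± 1133 with venetoclax and 3177 ± 146 with vehicle (SD, n = 2 each). MALAT1 was the gene with the most CPM in both combination libraries, where EEF1A1, a translation elongation factor, came next with 7541 and 9283 CPM. EEF1A1 was first in both vehicle libraries, in which MALAT1 ranked 4 and 5.

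The fitted MALAT1 level in the combination was 3.93-fold that in vehicle, 2.59-fold that with TAK-981 and 2.74-fold that with venetoclax, given with no test. Each single drug alone was tested. The log2 fold change was 0.60 ± 0.27 (SE) with TAK-981 against vehicle, with an adjusted p of 0.191, and 0.52 ± 0.27 with venetoclax against vehicle, with an adjusted p of 0.196 (edgeR quasi-likelihood test, Benjamini-Hochberg over 12843 genes). Neither passed the threshold of 0.05, although both did with no filter on low counts (adjusted p = 2.75e-05 and 0.000441). Without the second venetoclax library, which leaves 1 library in that group, the change with venetoclax was 0.75. The first TAK-981 library was 0.82 above the second on the log2 scale and the first venetoclax library 0.51 above the second, against 0.09 between the vehicle libraries. Without the first TAK-981 library the change with TAK-981 was 0.14, and without the second it was 0.95. The difference of the TAK-981 effect with and without venetoclax, the interaction, was 0.85 for MALAT1, given with no test.

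**Figure D1:**
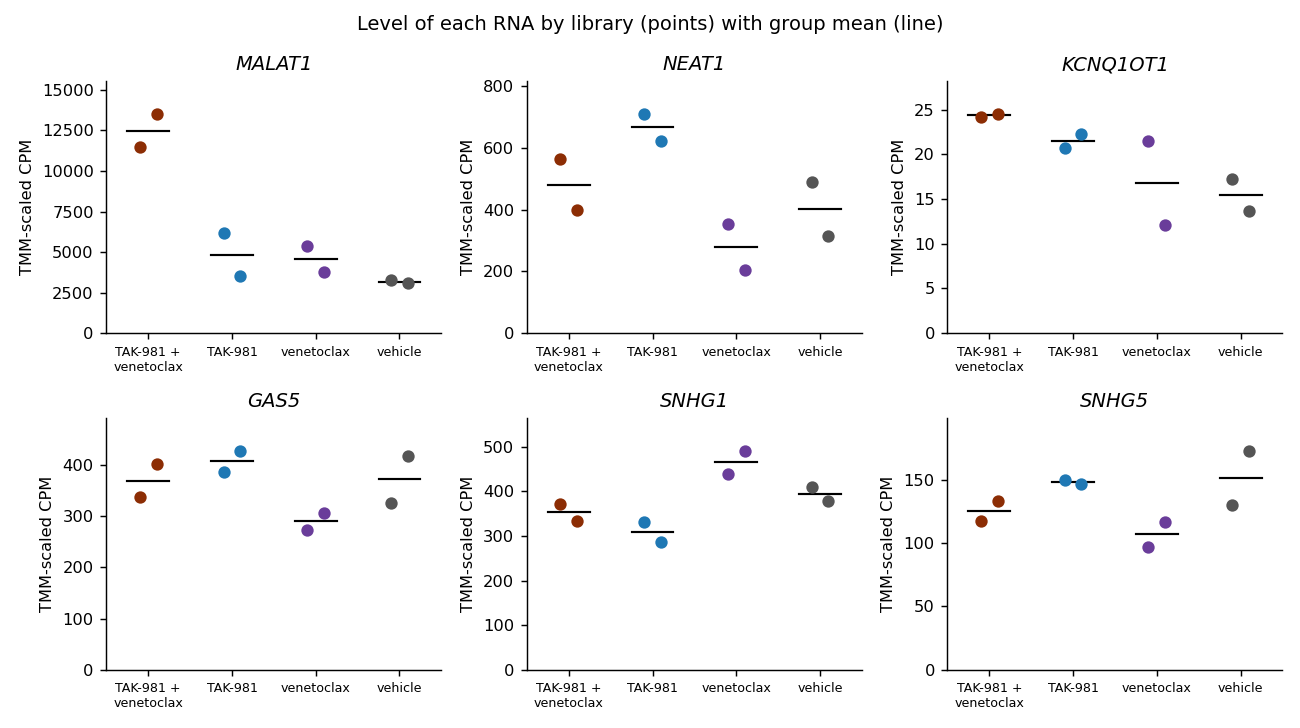
TMM-scaled CPM of the 6 RNAs in each library (points, 2 per group) with the group mean (line), each panel on its own axis from 0. MALAT1 is at 11464 and 13524 CPM in the combination and at or below 6152 CPM in the other 6 libraries, while NEAT1 is highest with TAK-981 and SNHG1 with venetoclax.

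The summed level of RNAs without poly(A) tails was, like that of MALAT1, highest in the combination. Of 49 such RNAs listed, 42 were in the table and 22 passed the filter. In the combination against vehicle, 19 of the 22 rose and 0 fell in edgeR (27.9% of all genes tested were called), 18 and 0 in DESeq2 and 19 and 0 in limma-voom, with 13 to 22 rising as each library was left out. The filter lets a gene pass through 1 group, so RNAs near 0 in vehicle were tested because they were high with a drug, and the share of the 22 that rose is conditioned on that. With no filter 24 of the 42 rose and 0 fell, and with a filter on the mean over all libraries, at least 1 CPM, 12 rose and 0 fell. All 42 together summed to 193 and 364 CPM in the combination, 46.6 and 41.2 CPM with TAK-981, 33.2 and 52.8 CPM with venetoclax, and 23.1 and 24.3 CPM with vehicle. In the combination most of the sum came from RN7SK, RN7SL1 and RN7SL2. They had 1240, 901 and 878 of 4223 counts in the first library and 1255, 1292 and 1150 of 4996 counts in the second. Both combination libraries had the highest sums, and between 7 and 17 of the 42 RNAs were at 0 counts in each library. Between the 2 libraries of a group, the sum and MALAT1 differed in the same direction in the combination and with TAK-981. They differed in opposite directions with venetoclax and with vehicle. The design text of the series names ribosomal RNA depletion, whereas the extraction protocol names SMART-Seq chemistry, in which reverse transcription usually starts from poly(A) tails. The part of these RNAs, and of how they were captured, in the MALAT1 result was not tested.

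RN7SK, the 7SK RNA that holds back the elongation factor P-TEFb, had 56.7 and 91.4 CPM in the combination, 8.81 and 5.72 CPM with TAK-981, 10.4 and 9.12 CPM with venetoclax, and 2.91 and 3.29 CPM with vehicle. Its log2 fold change in the combination against vehicle was 4.57 ± 0.29 (SE, adjusted p = 3.5e-05), and it also rose against TAK-981 (3.33) and against venetoclax (2.92). RN7SL1, the RNA of the signal recognition particle, rose by 4.69 ± 0.45 on the log2 scale against vehicle (adjusted p = 0.000209), although its reads could be shared with near-identical 7SL copies. RPPH1, the RNA subunit of the RNase P that cuts MALAT1, rose by 1.75 ± 0.49 on the log2 scale (adjusted p = 0.0257), on at most 54 counts per library, and this call was lost without any 1 of the 4 libraries compared. RMRP, its relative in RNase MRP, rose by 2.23 ± 0.42 on the log2 scale (adjusted p = 0.00462). RNU12, an RNA of the minor spliceosome, had 178 and 213 counts in the combination and 2 and 2 in vehicle. With TAK-981 it had 14 and 13 counts, and with venetoclax 14 and 68. The ratio of the combination to vehicle was 127.5, with a 95% exact counting interval of 49.4 to 470.4 that covers counting error only. RNU12 also rose with venetoclax against vehicle (log2 fold change 4.44, adjusted p = 0.00594). Of all genes, 12.2% were called with TAK-981 and 20.8% with venetoclax, each against vehicle. With the single drugs fewer of the list moved: 1 of 22 rose with TAK-981, and 7 rose and 1 fell with venetoclax (0 to 7 rising as each library was left out).

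**Figure D2:**
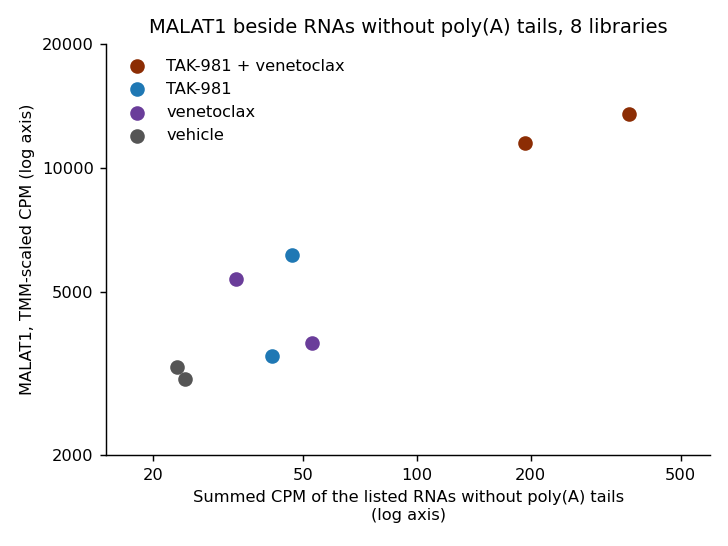
MALAT1 in TMM-scaled CPM (vertical, log axis) against the summed CPM of the 42 listed RNAs without poly(A) tails (horizontal, log axis), 1 point per library. The combination libraries lie at 193 and 364 CPM of the list, and the other 6 libraries lie between 23.1 and 52.8 CPM.

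Proteins that process or stabilise the MALAT1 end and other nuclear RNAs, such as the RNase P subunits, the exosome and the methyltransferase METTL16, were a list with 27 tested genes. Relative to vehicle 4 rose and 0 fell in the combination, a smaller share than the 27.9% of all genes, among them POP4, a protein subunit of RNase P (log2 fold change 0.62 ± 0.10, adjusted p = 0.00237). As each library was left out 1 to 10 rose and 0 to 3 fell, and 10 rose and 1 fell when only those 4 libraries were fitted. With venetoclax against vehicle 9 rose and 0 fell, where 20.8% of all genes were called. When only those 4 libraries were fitted 0 rose. With TAK-981 0 were called in edgeR, DESeq2 or limma-voom, with 1 at an unadjusted p under 0.05. Relative to venetoclax, the combination had 1 higher and 9 lower (4 lower when only those 4 libraries were fitted), among them the exosome subunit EXOSC3 (-0.78) and the RNase P subunit RPP30 (-0.59). Of the 30 nuclear speckle proteins tested, 2 rose and 2 fell in the combination against vehicle (0 to 7 and 0 to 4 as each library was left out). Against venetoclax 0 of them rose and 6 fell, among them BCLAF1 (-0.82), and 1 fell when only those 4 libraries were fitted. For both lists, 27.9% of all genes were called in the combination against vehicle and 39.6% against venetoclax.

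NEAT1 followed another order than MALAT1. It had 563 and 399 CPM in the combination, 711 and 624 CPM with TAK-981, 353 and 204 CPM with venetoclax, and 489 and 316 CPM with vehicle. Both TAK-981 libraries were above all the others, and the combination, vehicle and venetoclax libraries overlapped with their neighbours in that order. The log2 fold change was 0.73 ± 0.28 (SE) with TAK-981 against vehicle (adjusted p = 0.133), -0.53 ± 0.28 with venetoclax against vehicle (adjusted p = 0.205) and 0.26 ± 0.28 in the combination against vehicle (adjusted p = 0.535). It was -0.47 ± 0.28 in the combination against TAK-981 (adjusted p = 0.344) and 0.79 ± 0.28 in the combination against venetoclax (adjusted p = 0.0514), just beyond the threshold. NEAT1 thus passed in 0 of these 5 comparisons in edgeR at the settings used, and in 4 of them under at least 1 other setting. With TAK-981 against vehicle it passed in DESeq2 (adjusted p = 0.0437) and with no filter on low counts (adjusted p = 4.39e-07). The fall with venetoclax against vehicle passed with no filter (adjusted p = 0.000256), and that in the combination against TAK-981 with no filter (adjusted p = 0.00249) and with the 4 libraries alone (adjusted p = 0.0475). The combination differed from venetoclax for NEAT1 in DESeq2 (adjusted p = 0.00813), in limma-voom (adjusted p = 0.0462), with DESeq2 size factors (adjusted p = 0.049), with no TMM factor (adjusted p = 0.024) and with no filter (adjusted p = 1.26e-08). Against vehicle the combination value turned to -0.03 without the second vehicle library and to -0.02 without the first combination library.

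The ratio of MALAT1 to NEAT1 counts does not depend on the library total. It was 20.3 and 33.9 in the combination, 8.66 and 5.6 with TAK-981, 15.2 and 18.4 with venetoclax, and 6.70 and 9.73 with vehicle. The 4 libraries with venetoclax, alone or in combination, were above the 4 libraries without it. The ratios are a description with no test, and those of the combination use the MALAT1 level by which the set was chosen.

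The proteins of paraspeckles, 40 of them tested besides NEAT1 itself, had 0 calls with TAK-981 against vehicle in edgeR, with 7 at an unadjusted p under 0.05, 2 lower in DESeq2 and 1 lower in limma-voom. In that comparison 12.2% of all genes were called in edgeR. Without both venetoclax libraries 2 rose and 8 fell. With venetoclax against vehicle 12 rose and 1 fell, where 20.8% of all genes were called. Among the risers was FAM98A (log2 fold change 1.12, adjusted p = 0.00108). When only those 4 libraries were fitted 1 rose. In the combination against venetoclax 3 rose and 18 fell, where 39.6% of all genes were called. When only those 4 libraries were fitted 6 fell. Among the 18 were NUDT21 (-0.84), a cleavage factor that helps form poly(A) ends, and HNRNPR (-1.03), an RNA-binding protein. Against vehicle the combination had 5 higher and 4 lower, 9 of 40 where 27.9% of all genes were called, with the transcription factor RUNX3 at 0.85. As each library was left out 2 to 9 were higher and 0 to 11 lower, and 9 and 10 when only those 4 libraries were fitted.

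**Figure D3:**
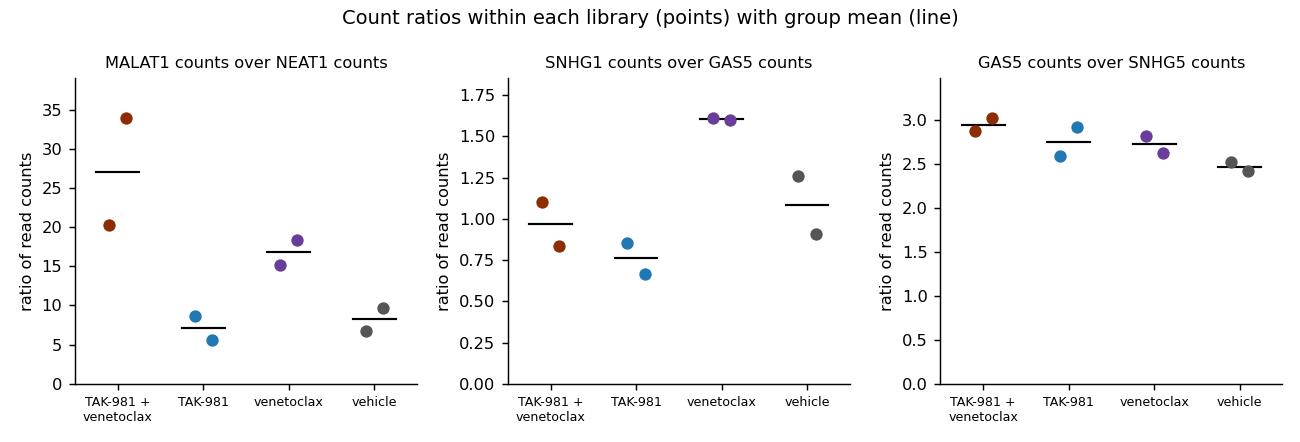
Ratios of read counts within each library (points, 2 per group) with the group mean (line), on axes from 0. MALAT1 over NEAT1 is 15.2 to 33.9 in the 4 libraries with venetoclax and 5.6 to 9.73 in the other 4, SNHG1 over GAS5 is highest with venetoclax alone at 1.61 and 1.60, and GAS5 over SNHG5 stays between 2.42 and 3.02.

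KCNQ1OT1, at chr11:2608328-2699994 on the minus strand, was the least abundant of the 6. It had 24.2 and 24.5 CPM in the combination, 20.8 and 22.2 CPM with TAK-981, 21.5 and 12.1 CPM with venetoclax, and 17.2 and 13.7 CPM with vehicle. Both combination libraries were the highest, the TAK-981 libraries were above vehicle, and the venetoclax libraries overlapped with both TAK-981 and vehicle. The log2 fold change in the combination against vehicle was 0.66 ± 0.24 (SE, adjusted p = 0.0679), which did not pass. It passed with the 2 groups alone (0.66, adjusted p = 0.00141), without both venetoclax libraries (0.66, adjusted p = 0.000508) and without either 1 of them (adjusted p = 0.00049 and 0.000488), in DESeq2 (adjusted p = 0.0341), with no TMM factor (adjusted p = 0.0421) and with no filter on low counts (adjusted p = 0.00172). With TAK-981 against vehicle it was 0.48 ± 0.24 (adjusted p = 0.239), and it passed with those 4 libraries alone (adjusted p = 0.00524), without both venetoclax libraries (adjusted p = 0.00851), without either 1 of them (adjusted p = 0.00867 and 0.00748) and with no filter (adjusted p = 0.0469). With venetoclax against vehicle it was 0.10 ± 0.24 (adjusted p = 0.798), and the sign rested on single libraries. It was -0.34 without the first venetoclax library, 0.48 without the second and -0.05 without the second vehicle library. In the combination against venetoclax it was 0.56 (adjusted p = 0.0927), and it passed in limma-voom (adjusted p = 0.045), with no TMM factor (adjusted p = 0.0342) and with no filter (adjusted p = 0.00708). Without the first venetoclax library, which leaves 1 library in that group, it was 1.0. KCNQ1, the potassium channel gene that KCNQ1OT1 overlaps on the other strand, had 0 counts in all 8 libraries, which allows up to 3 counts in each.

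Of 21 genes listed in the imprinted region around KCNQ1OT1, all in the table, 10 passed the filter, and their levels were far apart. NAP1L4 had 192 to 219 CPM and CARS 52.3 to 68.7 CPM over the 8 libraries, whereas CDKN1C had at most 1.87 CPM. Insulin, ASCL2 and KCNQ1DN were at 0 counts in every library. Relative to venetoclax, 5 of the 10 rose and 0 fell in the combination, near the 39.6% of all genes called there, and 3 rose when only those 4 libraries were fitted. With venetoclax against vehicle 0 rose and 4 fell, where 20.8% of all genes were called, and 1 fell when only those 4 libraries were fitted. TSPAN32, a tetraspanin of blood cells, was 1.05 higher in the combination than with venetoclax (adjusted p = 0.00187) and fell by 1.25 with venetoclax against vehicle (adjusted p = 0.00284). CDKN1C, the cell cycle inhibitor p57 that KCNQ1OT1 silences in cis, had 10 and 18 counts in the combination, 30 and 35 with TAK-981, 1 and 2 with venetoclax, and 11 and 4 with vehicle. Its ratio in the combination over venetoclax was 10.2, with a 95% exact counting interval of 3.14 to 52.3, and its call there was lost without the second combination library (adjusted p = 0.102). H19, the maternally expressed noncoding RNA of the next imprinted domain, had 18 and 12 counts in the combination, against 3 and 1 with venetoclax. With TAK-981 against vehicle 1 of the 10 rose and 1 fell, where 12.2% of all genes were called (27.9% in the combination against vehicle). They were CDKN1C (2.255, adjusted p = 0.0356) and OSBPL5 (-0.49, adjusted p = 0.0381). The CDKN1C value was 1.70 to 3.15 as each library was left out. Relative to vehicle, 0 of the 10 rose and 1 fell in the combination, the lipid transfer gene OSBPL5 (-0.53, adjusted p = 0.016), and that call was lost without any 1 of 4 libraries of these groups.

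Among 16 chromatin proteins that work in such silencing was TRIM28, a corepressor and SUMO ligase that binds imprinted regions. It had 648 and 638 CPM in the combination, 795 and 894 CPM with TAK-981, 85.3 and 173 CPM with venetoclax, and 151 and 138 CPM with vehicle. All 4 libraries with TAK-981 were above all 4 libraries without it. Its log2 fold change was 2.54 ± 0.27 with TAK-981 against vehicle (adjusted p = 0.000704) and 2.15 ± 0.27 in the combination against vehicle (adjusted p = 0.000679). Over all genes tested, 27.9% were called in the latter comparison. The Polycomb genes RNF2 (-0.87) and SUZ12 (-0.60) fell in the combination against vehicle, and the SUZ12 call was lost without the second combination library (adjusted p = 0.0591). Of the 16, 1 rose and 5 fell there (1 to 4 and 3 to 5 as each library was left out).

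GAS5 (chr1:173863900-173868882), SNHG1 (chr11:62851988-62855914) and SNHG5 (chr6:85660950-85678736), all on the minus strand, lay between MALAT1 and NEAT1 in their levels per length. Combination libraries had 1435 ± 167 CPM per kb of MALAT1 and 102 ± 12.6 of GAS5, the next. In vehicle GAS5, SNHG1 and SNHG5 had 103 ± 17.9, 105 ± 5.71 and 54.2 ± 11 CPM per kb, against 365 ± 16.8 for MALAT1, 17.7 ± 5.39 for NEAT1 and 0.168 ± 0.0273 for KCNQ1OT1 (SD, n = 2). GAS5 and SNHG1 overlapped in that order, and the other neighbours did not.

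Many snoRNA host transcripts start with a 5′ terminal oligopyrimidine (TOP) run, a C followed by pyrimidines that ties translation to mTOR signalling, as ribosomal protein mRNAs do. The first 30 bases of an annotated start of each gene are printed to show how the 3 differ in this. They are from GENCODE release 29 on GRCh38, 5′ to 3′ on the minus strand, with the starting pyrimidine run in capitals.
GAS5 (chr1:173867960-173867989): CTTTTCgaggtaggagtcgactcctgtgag
SNHG1 (chr11:62855856-62855885): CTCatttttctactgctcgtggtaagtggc
SNHG5 (chr6:85678704-85678733): CTTTTacgtcggccttcgcgagcgtctggg

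The run was 6 bases in GAS5, 3 in SNHG1 and 5 in SNHG5. These starts are shared by 6 of 29, 1 of 25 and 3 of 23 annotated transcripts of the genes, and the files do not say which start the cells used. In RefSeq start windows of GRCh38, a C followed by at least 4 pyrimidines stood at any listed start of 5.14% of 27305 genes, of 20 of the 24 listed TOP genes that had a window, and of 1 of the 4 members that had one. That member was SNHG5, and the RefSeq starts of GAS5, SNHG1 and MALAT1 had no such run, so the GAS5 run printed here belongs to another annotated start. A match is a description of the letters, and no match says only that these letters are not at that start.

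GAS5 had 337 and 401 CPM in the combination, 387 and 428 CPM with TAK-981, 273 and 307 CPM with venetoclax, and 326 and 418 CPM with vehicle. The venetoclax libraries were below the other 6, and the other groups overlapped. The log2 fold change with venetoclax against vehicle was -0.36 ± 0.15 (SE, adjusted p = 0.111), and that in the combination against venetoclax was 0.35 ± 0.15 (adjusted p = 0.0884). Without the second venetoclax library both passed (-0.45, adjusted p = 0.0386, and 0.42, adjusted p = 0.0369). Against vehicle the combination value was -0.01 ± 0.15 (adjusted p = 0.959). The antisense gene GAS5-AS1 overlaps the 3′ end of GAS5 and had at most 41 counts per library. The counting is not stated to use strand, so reads of the pair cannot be told apart there.

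SNHG5 was the only member called with venetoclax against vehicle, 1 of 6, where 20.8% of all genes tested were called. It had 117 and 133 CPM in the combination, 149.5 and 146.5 CPM with TAK-981, 96.7 and 117 CPM with venetoclax, and 130 and 173 CPM with vehicle. The venetoclax libraries were below both vehicle libraries. The log2 fold change was -0.50 ± 0.15 (SE, adjusted p = 0.0437). That call was lost without any 1 of 7 of the 8 libraries, all but the second venetoclax library (adjusted p between 0.0592 and 0.294), and with the 4 libraries alone (adjusted p = 0.134). Against vehicle the SNHG5 difference in the combination was -0.27 ± 0.15 (adjusted p = 0.204).

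SNHG1 had another order of groups than GAS5 and SNHG5. It had 371 and 335 CPM in the combination, 331 and 286 CPM with TAK-981, 438 and 491 CPM with venetoclax, and 410 and 379 CPM with vehicle. The groups were ordered venetoclax, vehicle, combination and TAK-981, with no overlap between neighbours on TMM-scaled totals. On plain totals venetoclax overlapped with vehicle, and vehicle with the combination. SNHG1 was then at 392.4 and 479.4 CPM with venetoclax, 413.9 and 372.9 CPM with vehicle, and 392.9 and 347.9 CPM in the combination. SNHG1 was called in the combination against venetoclax, where it fell by 0.40 ± 0.12 on the log2 scale (adjusted p = 0.0261), 1 of the 5 members tested there, against 39.6% of all genes. The call was lost with no TMM factor (-0.23, adjusted p = 0.182), with the 4 libraries alone (-0.35, adjusted p = 0.132), without the first combination library (-0.48, adjusted p = 0.0615) and without the second (-0.33, adjusted p = 0.167). With TAK-981 against vehicle the SNHG1 difference was -0.35 ± 0.12 (adjusted p = 0.0871) and passed without either 1 of the venetoclax libraries (adjusted p = 0.00565 and 0.00667).

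Ratios within a library separate the 3 host genes. SNHG1 over GAS5 counts was 1.10 and 0.834 in the combination, 0.854 and 0.667 with TAK-981, 1.61 and 1.60 with venetoclax, and 1.26 and 0.907 with vehicle. The venetoclax libraries had the highest ratios. GAS5 over SNHG5 was between 2.42 and 3.02 in all 8 libraries, the narrowest range of the ratios computed. Of 21 mature snoRNAs of these hosts listed, 8 have a row in the table, 6 from SNHG1 and 2 from SNHG5, and these 8 summed to at most 2 counts in any library. The others, those of GAS5 among them, were not analysed here, and how reads shared by a host and its snoRNA were counted is not given in the sources used here.

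**Figure D4:**
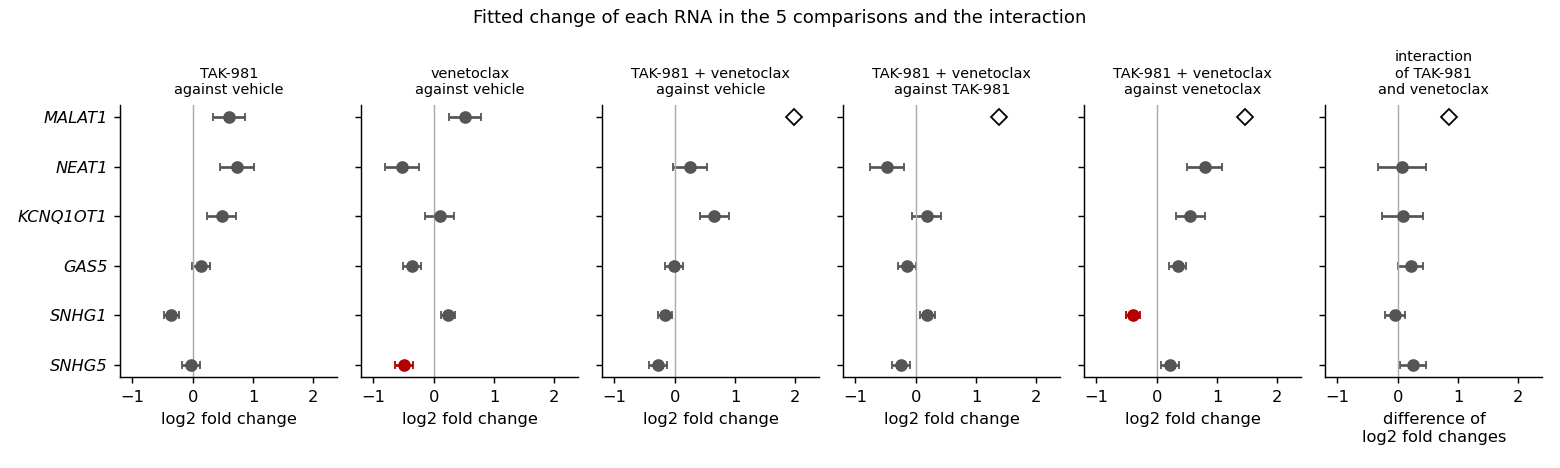
Log2 fold change (horizontal) of the 6 RNAs in the 5 comparisons, and the interaction as the difference of 2 such changes. Circles have the SE and are red where the adjusted p is under 0.05, and open diamonds mark MALAT1 in the combination, given with no test. SNHG5 with venetoclax against vehicle and SNHG1 in the combination against venetoclax are the red points.

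Over the members, calls in edgeR were few. With TAK-981 against vehicle 0 of 6 passed in edgeR, against 12.2% of all genes tested, with 2 of 6 at an unadjusted p under 0.05, 1 passing in DESeq2 (NEAT1) and 0 in limma-voom. For the combination against vehicle 0 of the 5 tested passed in edgeR, against 27.9% of all genes, with 1 at an unadjusted p under 0.05, 1 in DESeq2 (KCNQ1OT1) and 0 in limma-voom. Against TAK-981 the combination had 0 of 5 passing in edgeR, against 8.8% of all genes, with 0 at an unadjusted p under 0.05 and 0 in DESeq2 and in limma-voom. Against venetoclax 1 of 5 passed in edgeR (SNHG1), against 39.6% of all genes, with 4 at an unadjusted p under 0.05, 2 in DESeq2 and 3 in limma-voom. The interaction was called for 0.0311% of all genes, 4 of 12843, and for 0 of the 5 members tested in edgeR, DESeq2 or limma-voom, with 0 at an unadjusted p under 0.05. These comparisons share their vehicle and drug libraries and are not independent of each other.

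Other snoRNA host genes did not move as 1 group. Among all genes tested, 27.9% were called in the combination against vehicle and 39.6% against venetoclax, 20.8% with venetoclax and 12.2% with TAK-981. Of 27 tested besides the members, 2 rose and 2 fell in the combination against vehicle (1 to 6 and 0 to 4 as each library was left out), 4 rose and 0 fell with venetoclax (0 and 0 when only those 4 libraries were fitted), 0 rose and 1 fell with TAK-981, and 5 rose and 3 fell in the combination against venetoclax (3 and 1 when only those 4 libraries were fitted). SNHG12 had 30.4 and 32.2 CPM in the combination, against 16.0 and 16.3 CPM in vehicle, a log2 fold change of 0.95 ± 0.13 (adjusted p = 0.0012). SNHG15 rose by 0.70 ± 0.16 on the log2 scale in that comparison (adjusted p = 0.0103), a call lost without the second vehicle library or the first combination library. SNHG10 fell in the combination against venetoclax (-1.2 ± 0.20, adjusted p = 0.00229).

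The TOP mRNAs of ribosomal proteins and translation factors were a list of 33 tested genes. The shares of all genes called were 20.8% with venetoclax, 27.9% in the combination and 12.2% with TAK-981, each against vehicle. With venetoclax against vehicle 1 rose and 7 fell, with a median log2 fold change of -0.25 where that of all genes was 0, but 0 fell when only those 4 libraries were fitted. RPL3, a large subunit protein, had 620 and 827 CPM with venetoclax, against 1118 and 1417 CPM with vehicle (-0.81 ± 0.18, adjusted p = 0.0164, lost without either vehicle library). Relative to vehicle 0 rose and 5 fell in the combination (0 to 10 falling as each library was left out), among them the initiation factors EIF4B (-0.61) and EIF3E (-0.67), both lost without the second vehicle library or the first combination library. With TAK-981 against vehicle 0 were called in edgeR and limma-voom and 1 in DESeq2, with 3 at an unadjusted p under 0.05.

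Nonsense-mediated decay clears the exons of these hosts. Beside the counts that follow, 27.9% of all genes were called in the combination against vehicle, 20.8% with venetoclax and 12.2% with TAK-981. Of 24 tested factors of that pathway, 2 rose and 2 fell in the combination against vehicle (1 to 7 and 0 to 5 as each library was left out), 8 rose and 2 fell with venetoclax (0 and 0 when only those 4 libraries were fitted), and 1 rose and 1 fell with TAK-981. UPF2, which bridges the surveillance complex, rose by 1.00 ± 0.17 on the log2 scale in the combination against vehicle (adjusted p = 0.00256). Of 21 mRNAs known as targets of decay, 3 rose and 1 fell in that comparison (2 to 7 and 0 to 5 as each library was left out), and the risers included the stress genes GADD45B (1.17) and DDIT3 (1.35). With venetoclax 1 rose and 2 fell (0 and 0 when only those 4 libraries were fitted), and the cell cycle inhibitor CDKN1A fell (-1.53, adjusted p = 0.0124), a call lost without either vehicle library.

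Other long noncoding RNAs, 41 tested, were mixed: 6 rose and 8 fell in the combination against vehicle (3 to 7 and 4 to 14 as each library was left out), 2 rose and 6 fell with venetoclax (0 and 2 when only those 4 libraries were fitted), 1 rose and 1 fell with TAK-981 (6 and 6 without both venetoclax libraries), and 8 rose and 11 fell in the combination against venetoclax (6 and 3 when only those 4 libraries were fitted). The shares of all genes called in these 4 comparisons were 27.9%, 20.8%, 12.2% and 39.6%, in that order. MIR17HG, a microRNA host gene, had 76.4 and 63.4 CPM in the combination, 116.5 and 118.6 CPM with TAK-981, 40.2 and 43.3 CPM with venetoclax, and 31.6 and 37.3 CPM with vehicle. It rose with TAK-981 against vehicle (1.77 ± 0.13, adjusted p = 8.16e-05). MIR155HG, another microRNA host, had 7.54 and 7.21 CPM in the combination, 21.3 and 23.1 CPM with TAK-981, 17.3 and 16.0 CPM with venetoclax, and 31.3 and 35.3 CPM with vehicle. Its log2 fold change was -2.17 ± 0.14 in the combination against vehicle (adjusted p = 3.6e-05), -1.0 with venetoclax and -0.59 with TAK-981, the last lost without any 1 of its 4 libraries. MIAT, another nuclear noncoding RNA, fell by 2.10 with venetoclax against vehicle (adjusted p = 0.00185).

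The genes next to the 6, 27 of them tested, had 4 higher and 2 lower in the combination against vehicle, 13 higher and 4 lower without both venetoclax libraries, and 1 to 12 higher and 0 to 4 lower as each library was left out. Against vehicle, 27.9% of all genes were called in the combination. WDR74, which starts 10.2 kb from SNHG1 and works in ribosome assembly, had 107 and 223 CPM in the combination, 41.2 and 42.7 CPM with TAK-981, 50.9 and 73.5 CPM with venetoclax, and 48.8 and 46.7 CPM with vehicle. Its log2 fold change against vehicle was 1.78 ± 0.30 (adjusted p = 0.00276). GENCODE release 29 places the U2 small nuclear RNA gene RNU2-2P (chr11:62841619-62841809, minus strand) within the first bases of WDR74 on the same strand, so reads of the pair cannot be told apart in this value. The other 3 that rose included the mRNA export factor NXF1 (0.66, lost without the second vehicle library) and TAF6L (1.00, lost without any 1 of 3 libraries).

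Hypoxia-inducible genes, taken because hypoxia raises NEAT1, were mostly lower in the groups with venetoclax. Of 18 tested, 0 rose and 12 fell in the combination against vehicle, where 27.9% of all genes were called. With venetoclax 0 rose and 13 fell, where 20.8% of all genes were called (7 fell when only those 4 libraries were fitted). With TAK-981 0 rose and 2 fell, where 12.2% of all genes were called. The part of these genes in the NEAT1 values was not tested. ENO2, a glycolytic enolase, was -2.97 in the combination against vehicle and -2.79 with venetoclax against vehicle, and PFKFB3 was -1.83 and -1.37.

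**Figure D5:**
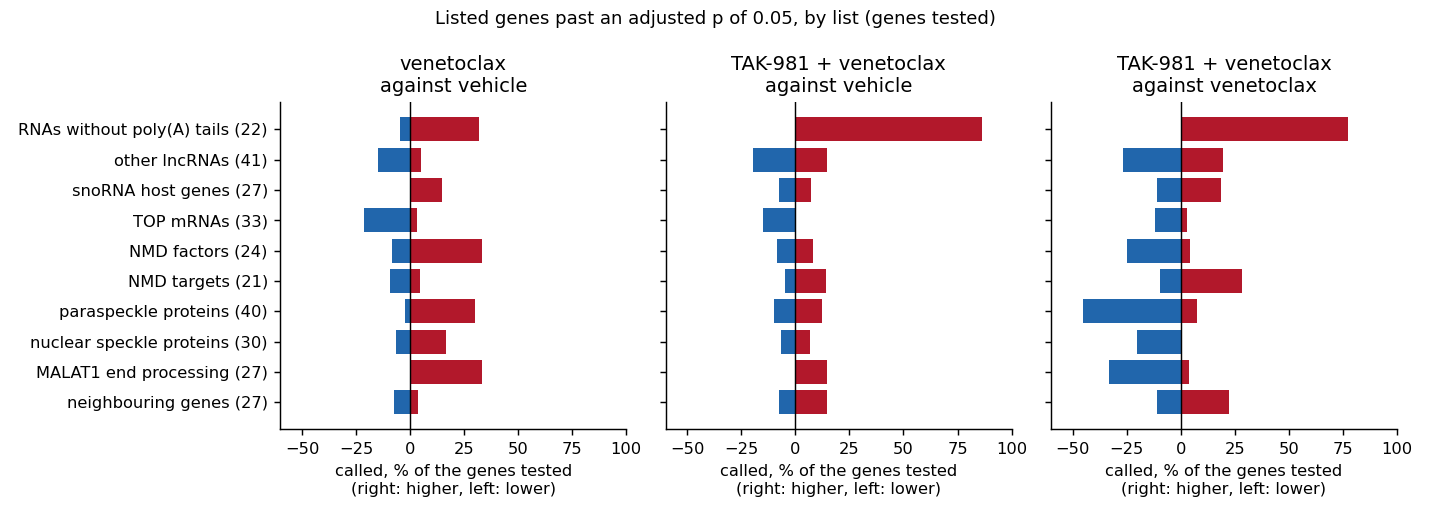
Share of each gene list called in edgeR, higher to the right and lower to the left, as a percentage of the genes tested (number in brackets), in 3 comparisons. The RNAs without poly(A) tails have 19 of 22 higher in the combination against vehicle, and the paraspeckle proteins have 18 of 40 lower in the combination against venetoclax. Of all genes tested, 20.8% were called with venetoclax against vehicle, 27.9% in the combination against vehicle and 39.6% in the combination against venetoclax, either direction.

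The genes whose level was most like each member were sought among 9745 genes with at least 5 CPM, by Pearson's r of log2 CPM over the 8 libraries, as a description. MALAT1 was nearest to CYP1B1-AS1 (r = 0.976), RN7SK (0.965) and GOLGA2 (0.960). NEAT1 was nearest to ZNF236, LYST and CDC16 (0.968 to 0.970), KCNQ1OT1 to MMP25-AS1 (0.992), DCAF5 (0.982) and STRN4 (0.970), and SNHG1 to NUP98 (0.992), AP3M2 (0.978) and CENPN (0.973). GAS5 was nearest to EEF1G (0.988), RPS19 (0.983) and RPS12 (0.976), and SNHG5 to RPS7 (0.976), EEF1A1 (0.974) and RPL4 (0.971), all genes of the translation machinery. Between members, r was 0.898 for GAS5 with SNHG5, -0.823 for GAS5 with SNHG1 and 0.255 for MALAT1 with NEAT1. The 8 libraries share their groups, so these values follow the same 4 treatments.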

How the data were processed

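The deposited values are whole-number read counts per gene, not normalized by the authors. Per the submitters' processing notes, hg38, Trimmomatic, STAR 2.6.0, HTSeq 0.11.1 and edgeR were used, in roles left unsaid. Annotation release, strandedness and multi-mapping rules are not given in the sources used. Groups were taken from the labels. The 6 genes and all gene lists were chosen with earlier results of these data known, so no list is independent support. Counts were tested with edgeR 4.0.16 in R 4.3.3 (limma 3.58.1): TMM scaling, filterByExpr, robust quasi-likelihood F tests, 1 fit of 8 libraries, two-sided, Benjamini-Hochberg over 12843 genes, threshold 0.05. SE was taken as |log2 fold change| divided by √F and is approximate. The fit was tested on simulated data. CPM uses TMM-scaled totals; CPM per kb uses the length in the table; log2 CPM has a prior count of 2. Named genes are the 6, up to 4 called per list and comparison with the smallest p, RN7SK, RN7SL1, RMRP, RPPH1, tested genes of the KCNQ1OT1 region and the 3 nearest by r, leaving out unnamed gene models and genes of the Y chromosome. Markers, EEF1A1 and genes at 0 counts were named after their values were seen. Counting intervals cover counting error only. DESeq2 1.42.0 and limma-voom, other scalings, filters and fits, and leaving out each library were the alternatives.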

Additional observations from a re-analysis of the deposited data

How the results depend on the processing

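No called value changed sign in any setting run, and MALAT1 in the combination kept its direction in all of them. Leaving out 1 library at a time gave MALAT1 log2 changes of 1.85 to 2.08 in the combination against vehicle, 1.01 to 1.84 against TAK-981, 1.21 to 1.73 against venetoclax and 0.50 to 1.32 for the interaction. The same gave 336 to 3879 genes and 0 to 2 members called with TAK-981 against vehicle, 253 to 5360 and 0 to 4 with venetoclax against vehicle, 1431 to 6152 and 0 to 1 in the combination against vehicle, 65 to 3696 and 0 to 0 against TAK-981, 2386 to 7204 and 0 to 2 against venetoclax, and 0 to 4440 and 0 to 0 for the interaction. Without the second venetoclax library the interaction was called for 4440 genes, without the first for 713, and without any other 1 library for 0.

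Counts of members called moved as follows. With no filter on low counts they were 4 with TAK-981, 4 with venetoclax, 1 in the combination against vehicle, 1 against TAK-981 and 4 against venetoclax. In these comparisons 2309, 3644, 4295, 1875 and 5791 genes were called, among all genes with any count. With the 4 libraries of the 2 groups alone they were 2, 0, 1, 2 and 0, with 4096, 200, 5740, 3746 and 2497 genes called. Without both venetoclax libraries they were 2 with TAK-981 and 1 in the combination against vehicle, and the genes called were 3863, 6110 and 3678 (combination against TAK-981). DESeq2 gave 1 with TAK-981, 1 in the combination against vehicle and 2 against venetoclax, with 1690, 3517 and 4915 genes called. In the last, limma-voom gave 3, with 4980 genes called, and DESeq2 size factors gave 2, with 5031 genes called. Without a TMM factor the members called were 1 in the combination against vehicle and 3 against venetoclax, with 3473 and 4618 genes called. The interaction was called for 8 genes with DESeq2 size factors, 1098 with no filter, 296 in DESeq2 and 9 in limma-voom, against 4. With no filter 1875 genes were called in the combination against TAK-981. On plain totals KCNQ1OT1 averaged 25.6 CPM in the combination and SNHG5 151 CPM with TAK-981, each beyond 1 SD of its mean. The causes were not tested.

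The labels number the replicates 1 and 2 in each group and do not say what the numbers share. With a replicate block, 1 member was called with TAK-981, 3 with venetoclax, 1 in the combination against vehicle and 3 against venetoclax. In these comparisons 1739, 2994, 3798 and 5306 genes were called, and 24 genes for the interaction. The block added calls of NEAT1 with TAK-981 (adjusted p = 0.00856), with venetoclax (adjusted p = 0.0238) and in the combination against venetoclax (adjusted p = 0.00249), of GAS5 with venetoclax (adjusted p = 0.0306) and in the combination against venetoclax (adjusted p = 0.0206), and of KCNQ1OT1 in the combination against vehicle (adjusted p = 0.0456). Differences between replicates 1 and 2 correlated across 9858 genes at -0.04 to 0.38 between groups. These values do not settle whether the numbers mark pairs, and the main fit has no block. NEAT1 was higher in replicate 1 than in replicate 2 in every group (log2 differences of 0.19 to 0.79). GAS5 was lower in replicate 1 in every group (-0.36 to -0.15). Depth limits KCNQ1OT1, with 282 to 529 counts per library, the low genes of its region such as CDKN1C, and RNAs such as RNU12, with 2 and 2 counts in vehicle.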
